A study of Homo sapiens with 6 samples.

Results

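The genes described here are 10 markers of neuroendocrine cells, namely CHGA, CHGB, SYP, NCAM1, DLL3, GRP, CALCA, SCG2, UCHL1 and DDC. They were chosen by name, and a chromatin immunoprecipitation (ChIP-seq) peak belonged to a gene when it overlapped the gene span on hg19 with 5 kb added on either side, called the window of the gene. The windows held 111 of the 148837 peaks listed on chromosomes 1 to 22 and X in 4 libraries. These were 52 of 51091 H3K27ac peaks in H69M and 53 of 38255 in H69, and 3 of 37853 H3K27me3 peaks in H69M and 3 of 21638 in H69.

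H69M is a derivative of the small cell lung cancer (SCLC) line H69 (NCI-H69). Its making is credited by the labels to an earlier publication, it is known as a mesenchymal-like form of the line, and whether it is a single clone was not given in the sources used here. No drug or transgene is named for either line, and both carry the label small cell lung cancer. Each line gave 1 library per antibody, with no replicates, so values are set side by side without a test between the lines.

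Neuroendocrine cells store peptides and amines in dense-core granules and release them on stimulation. Granins fill these granules, vesicle proteins move them, and the peptides act on neighbouring cells. Classic SCLC cells carry this programme, and its proteins are used to diagnose the tumour. H3K27ac marks active promoters and enhancers, whereas H3K27me3 is written by Polycomb repressive complex 2 at silenced genes.

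The active mark was listed at most of the markers in both lines. Windows of 9 of the 10 genes held H3K27ac in H69M, and the windows of the same 9 genes held it in H69, beside 24.6% of all 25 kb tiles in H69M and 19.0% in H69. A peak lay within 1 kb of the gene start of 8 genes in both lines, and each of these 16 start peaks covered the first base of the gene and overlapped the start peak of the other line. Of all 2 kb tiles, about the size of this start region, 5.24% held H3K27ac in H69M and 3.62% in H69. Tiles are mostly not promoters, and the starts of other genes on hg19 were not used here, so nothing particular to these markers can be read from their counts. CALCA was the gene without H3K27ac in either line, and DDC had its first peak downstream of the start. The 6 H3K27me3 peaks in the windows had scores of 50.7 to 67.7, and between 2.21% and 52.3% of the peaks of their own list scored lower.

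The score is the authors' own value for each peak, with no unit given, and it describes a peak within its list only. It piles up at 3100, and peaks at that value cannot be ranked among themselves. In the H69M H3K27ac list 11.8% of the peaks stood at 3100 or more, against 8.93% in the H69 list. Start peaks reached 3100 in H69M at 5 genes (CHGA, CHGB, NCAM1, DLL3 and UCHL1) and in H69 at 2 genes (CHGB and NCAM1). Read depth is unknown, and peak number and width grow with depth and enrichment, so the lists cannot show on their own that a gene differed in mark.

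**Figure D1:**
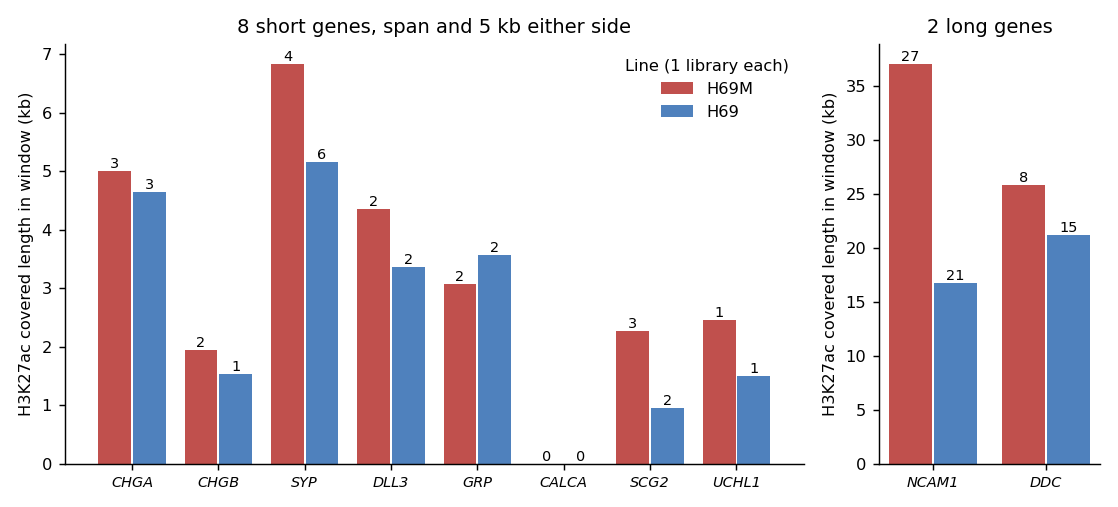
H3K27ac covered length (y axis, kb) in the window of each gene, H69M left and H69 right, with the number of peaks above each bar and 1 library per bar. H69M bars are the taller ones at 8 genes, GRP has 3.06 kb in H69M and 3.57 kb in H69, and CALCA has no peak.

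H3K27ac covered a greater length in H69M than in H69 in 8 windows, a shorter one in the GRP window, and none in the CALCA window in either line, although the direction turned for CHGA, CHGB or SYP under some of the settings given with each of these genes. Of all 25 kb tiles with H3K27ac in either line, 77.4% had the greater length in H69M and 22.5% the shorter one, so the count over the markers is near what the lists show everywhere. The 10 windows together held 88.8 kb in H69M and 58.8 kb in H69, a ratio of 1.51, beside 76.8 Mb and 48.2 Mb over all peaks, a ratio of 1.59. The mean score of the peaks summed was 855 in H69M and 523 in H69, beside 804 and 735 over the whole lists. NCAM1 and DDC gave 35 of the 52 peaks in H69M and 36 of the 53 in H69, so these means mostly describe them. As the score describes a peak within its list only, the means cannot be compared between the lines. NCAM1 and DDC also gave most of the covered length. Without them the other 8 windows held 25.9 kb in H69M and 20.7 kb in H69, a ratio of 1.25. The median ratio over the 9 genes was 1.30, and over the 20040 tiles with peaks in both lines it was 1.26.

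**Figure D2:**
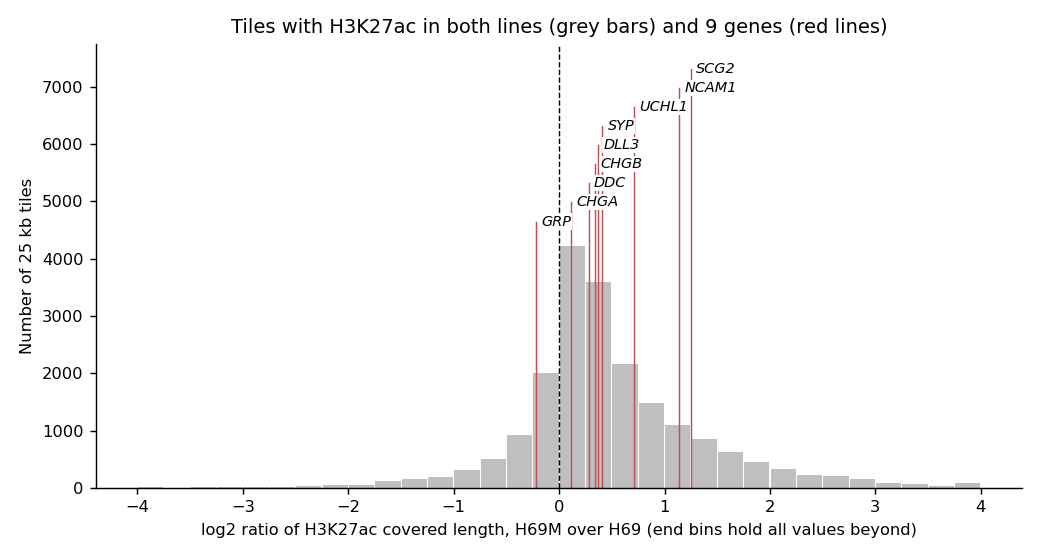
Log2 ratio of H3K27ac covered length, H69M over H69 (x axis), for 25 kb tiles with peaks in both lines (grey bars, number of tiles on the y axis) and for the windows of 9 genes (red lines, whose heights carry no value). GRP lies at -0.22, left of the dashed line of equal length, and SCG2 lies farthest right at 1.25.

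The granins came first among the secretory genes. CHGA encodes chromogranin A, the acidic core protein of dense-core granules and the most used blood marker of neuroendocrine tumours. It spans 93389445 to 93401638 on the plus strand of chromosome 14. Its start peak ran from 93387786 to 93391084 in H69M, 3299 bp wide with a score of 3100, and from 93388675 to 93390558 in H69, 1884 bp wide with a score of 1948. The H69M peak was the wider one on both sides of the start, by 1415 bp in all.

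Upstream of CHGA the H69M list had a peak of 3022 bp (bases -7124 to -4103 from the gene start, score 1368), and the H69 list 2 peaks inside it, of 735 bp (bases -6321 to -5587, score 178, outside the window) and 655 bp (bases -5497 to -4843, score 129.8). Beyond the gene end the sizes were the other way round, with 801 bp in H69M (score 64.5) and 2605 bp in H69 (score 413). That end of the window also reaches towards ITPK1, an inositol phosphate kinase gene that follows CHGA on the same chromosome, so the peaks there cannot be assigned to CHGA. All 3 CHGA peaks of each line had a counterpart. In total the window was covered over 5.00 kb in H69M and 4.65 kb in H69, with upstream peaks counted only within 5 kb of the span. This surplus of H69M turned into a deficit (4.20 against 4.65 kb) with peaks under a score of 100 left out or with equal numbers of peaks. The H69 value there includes the 2605 bp peak beyond the gene end. Over the gene span alone the values were 1.64 kb in H69M and 1.11 kb in H69. With a score of 1000 or more they were 4.20 kb in H69M and 1.88 kb in H69.

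The RefSeq promoter of CHGA is shown because the start peak reached farther upstream in H69M than in H69 there, and because it holds the cAMP response element through which this gene is known to be induced. Capitals mark TGACGTCA (bases -54 to -47 from the RefSeq start) and, on the opposite strand, the E-box CAGGTG (bases -93 to -88). TGACGTCA occurred in 1.85% and CAGGTG in 20.6% of 35116 RefSeq promoters of the same length.
CHGA promoter, chr14:92922900-92923199 of GRCh38.p14, plus strand: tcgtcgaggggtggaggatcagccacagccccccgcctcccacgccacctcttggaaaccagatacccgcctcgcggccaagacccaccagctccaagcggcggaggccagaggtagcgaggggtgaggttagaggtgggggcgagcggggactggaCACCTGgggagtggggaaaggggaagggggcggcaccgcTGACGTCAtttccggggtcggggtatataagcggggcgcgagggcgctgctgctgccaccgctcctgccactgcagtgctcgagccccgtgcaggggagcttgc

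CHGB encodes chromogranin B, a second granin of the same granules, and spans 5891974 to 5905995 on the plus strand of chromosome 20. Its start peak was 1348 bp wide in H69M (5891576 to 5892923) and 1534 bp wide in H69 (5891492 to 5893025), with a score of 3100 in both lists. The H69M peak lay inside the H69 peak. A second H69M peak of 590 bp upstream (bases -1281 to -692) had a score of 87.4 and no counterpart in H69. It alone made the window longer in H69M, at 1.94 kb against 1.53 kb in H69, and with peaks under a score of 100 left out the values were 1.35 kb in H69M and 1.53 kb in H69.

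SCG2 encodes secretogranin II, the granin from which the neuropeptide secretoneurin is cut, and spans 224461658 to 224467221 on the minus strand of chromosome 2. It had the lowest scoring start peak of the 8 genes in both lists, 691 bp wide with a score of 297 in H69M and 447 bp wide with a score of 131 in H69. Of the peaks in the H69 list 3.52% were narrower than that peak, and 20.7% of the H69M list were narrower than the H69M one. Inside the gene the H69M list had a peak of 1088 bp (bases 3030 to 4117, score 181) with no counterpart in H69. An upstream peak (bases -4378 to -3888 in H69M) was listed in both lines, 491 bp wide with a score of 50.1 in H69M and 505 bp wide with a score of 123.7 in H69.

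The SCG2 window was covered over 2.27 kb in H69M and 0.952 kb in H69, a ratio of 2.38 and the highest of the 9 genes. The surplus went beyond the window. With 50 kb on either side of the gene, H69M had 9 peaks over 9.97 kb and H69 had 5 peaks over 3.13 kb. The ratio was 4.21 over the gene span alone, 2.44 with 20 kb and 3.18 with 50 kb on either side. It fell to 1.87 with equal numbers of peaks or with a score of 100 or more. With a score of 1000 or more no peak was left in either line. In the windows as reported, SCG2 and NCAM1 were the 2 genes of 9 with at least 2 times the length in H69M. That share is near the 20.9% of tiles with peaks in both lines that reached this ratio.

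GRP encodes gastrin-releasing peptide, a bombesin-like growth factor that SCLC cells secrete and respond to, and whose precursor is measured in blood as an SCLC marker. It spans 56887400 to 56898002 on the plus strand of chromosome 18. Its start peak was 2035 bp wide in H69M (56886740 to 56888774) with a score of 1007, and 2310 bp wide in H69 (56886763 to 56889072) with a score of 2129. Within their own lists, 73.7% of the H69M peaks and 86.2% of the H69 peaks had lower scores than these. A second peak upstream measured 1029 bp in H69M (score 143) and 1259 bp in H69 (score 223).

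GRP was thus covered over 3.06 kb in H69M and 3.57 kb in H69, a ratio of 0.859. It was the shorter window in H69M under all 6 alternatives, with ratios from 0.807 (50 kb on either side) to 0.881 (a score of 1000 or more). Of the tiles with peaks in both lines 21.8% had the shorter length in H69M, and the 10% quantile of their ratios was 0.798, below that of GRP. No H3K27me3 peak lay in the window in either line, and the nearest one to the gene start was 37.0 kb away in H69M and 71.8 kb away in H69.

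The GRP promoter is shown as that of the gene with less H3K27ac length in H69M. Capitals mark TATAAA, the TATA box motif, at bases -29 to -24 from the RefSeq start, a motif held by 11.5% of the RefSeq promoters.
GRP promoter, chr18:59219908-59220207 of GRCh38.p14, plus strand: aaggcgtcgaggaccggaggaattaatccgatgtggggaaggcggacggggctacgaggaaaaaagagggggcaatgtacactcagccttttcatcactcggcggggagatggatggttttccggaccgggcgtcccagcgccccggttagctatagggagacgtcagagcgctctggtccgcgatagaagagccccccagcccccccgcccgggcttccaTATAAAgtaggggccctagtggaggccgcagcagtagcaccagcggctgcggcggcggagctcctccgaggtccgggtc

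CALCA encodes calcitonin and, by alternative splicing, the neuropeptide CGRP. It spans 14988215 to 14993819 on the minus strand of chromosome 11. It stood apart from the other 9 genes, with no H3K27ac peak in the window in H69M or in H69. The nearest H3K27ac peak lay 80.0 kb from the gene start in H69M and 80.2 kb in H69, and none was listed within 50 kb of the gene span in either line.

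CALCA instead held short H3K27me3 peaks upstream of its start in both lines. H69M had 2 (131 bp, score 50.7, and 121 bp, score 53.0) and H69 had 3 (154 bp, score 67.7, 161 bp, score 55.8, and 254 bp, score 58.4), all between bases -2911 and -1506. They covered 0.252 kb in H69M and 0.569 kb in H69. Only 1 peak of each line overlapped one of the other, so 1 of 2 H69M peaks and 2 of 3 H69 peaks had no counterpart, beside 81.1% and 67.4% of all H3K27me3 peaks of these lines. Every peak of the H69 list at CALCA lay within 1 kb of an H69M peak.

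Among all tiles with H3K27me3 in either line 38.3% were covered over a shorter length in H69M, as CALCA was, and 61.7% over a greater one. The CALCA promoter is shown as the one of a marker with no H3K27ac. It held none of the 6 motifs searched, and capitals mark the 50 bases from the RefSeq start onward.
CALCA promoter, chr11:14972302-14972601 of GRCh38.p14, minus strand: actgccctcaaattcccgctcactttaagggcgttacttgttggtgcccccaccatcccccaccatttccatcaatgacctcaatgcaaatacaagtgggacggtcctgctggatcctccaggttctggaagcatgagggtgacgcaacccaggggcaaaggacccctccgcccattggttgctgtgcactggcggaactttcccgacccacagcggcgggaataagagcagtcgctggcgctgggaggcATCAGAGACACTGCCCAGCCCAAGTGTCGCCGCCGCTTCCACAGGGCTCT

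**Figure D3:**
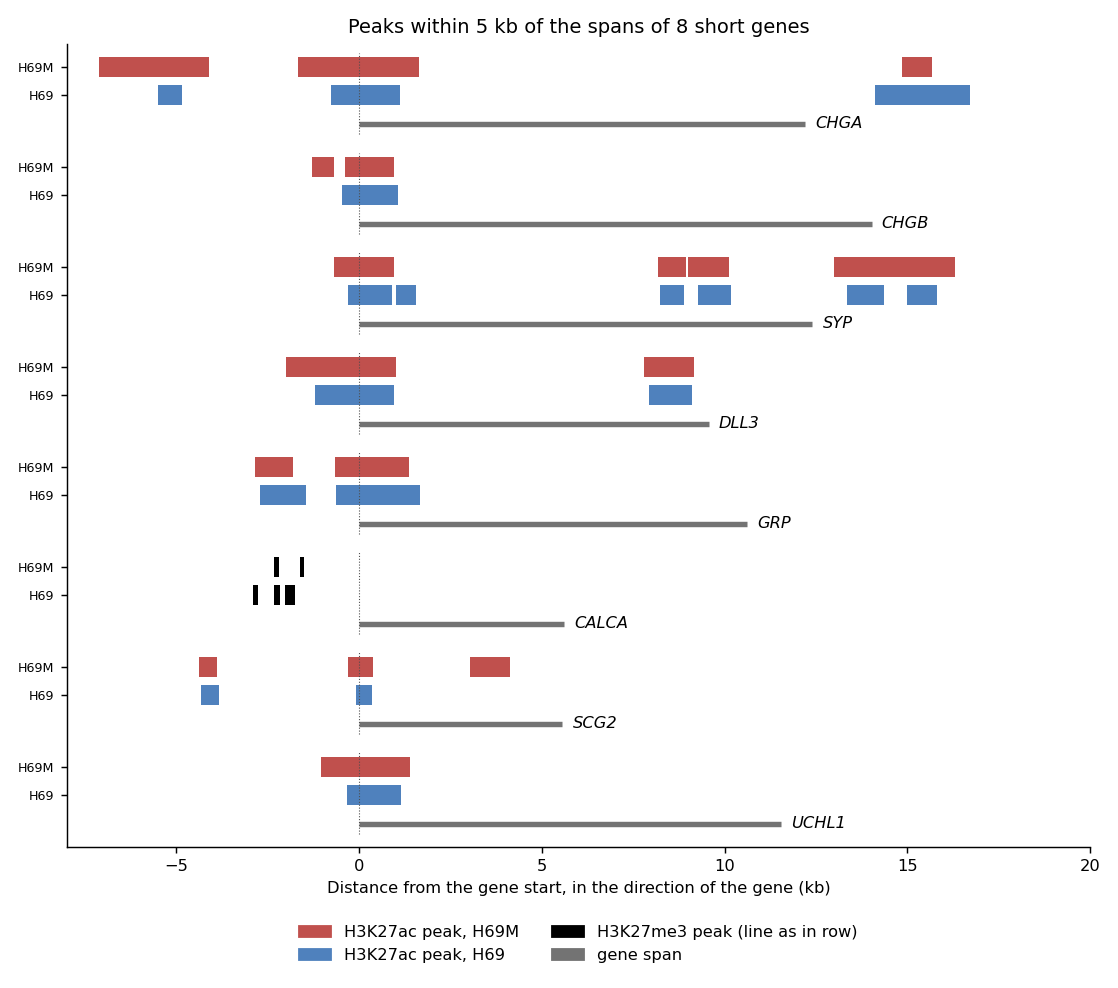
Peaks in the windows of the 8 short genes, by distance from the gene start in kb (x axis, gene running to the right), with the H69M row above the H69 row and the gene span in grey. H3K27ac (coloured) lies over the start in both rows of 7 genes, and CALCA has H3K27me3 (black, drawn at least 0.1 kb wide) upstream of its start and no H3K27ac.

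Among genes of the secretory vesicle and the cell surface, SYP encodes synaptophysin, a membrane protein of small synaptic vesicles and a standard stain for neuroendocrine tumours. It spans 49044265 to 49056661 on the minus strand of chromosome X. Its start peak was 1638 bp wide with a score of 1698 in H69M (49055717 to 49057354), and 1198 bp wide with a score of 935.7 in H69 (49055773 to 49056970). Both lists also had a pair of peaks in the later part of the gene, from base 8191 in H69M and from base 8238 in H69, with scores of 1074 and 633 in H69M and 556 and 226 in H69.

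Beyond the SYP end the H69M list had 1 peak of 3313 bp (score 977.8), and the H69 list 2 peaks of 1015 and 822 bp (scores 176 and 239) inside it. In RefSeq this flank also reaches the start of PRICKLE3, the next gene downstream, so these peaks were assigned to neither gene. SYP was covered over 6.83 kb in H69M and 5.15 kb in H69 in the window. Within the gene span alone it was covered over 2.83 kb in H69M and 3.01 kb in H69. The span leaves out both these peaks and the upstream part of the start peaks. The H69 length in the span includes a weak peak of 536 bp (bases 1009 to 1544, score 56.5) without a counterpart in H69M. That peak is longer than the gap between the span values, so the turn rests on it. SYP-AS1, an antisense transcript, overlaps the SYP start in RefSeq, and a histone mark does not tell strands apart.

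DLL3 encodes an inhibitory Notch ligand, displayed on SCLC cells and targeted by antibody therapies, and spans 39989557 to 39999118 on the plus strand of chromosome 19. Its start peak was 3008 bp wide with a score of 3100 in H69M (39987561 to 39990568), and 2181 bp wide with a score of 1692 in H69 (39988338 to 39990518). The difference lay upstream, where the H69M peak began at base -1996 and the H69 peak at base -1219, and the ends were close, at base 1011 in H69M and base 961 in H69. A second peak near the gene end measured 1352 bp in H69M (score 509) and 1182 bp in H69 (score 280). Both DLL3 peaks of each line were shared, over 4.36 kb in H69M and 3.36 kb in H69.

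UCHL1 encodes a ubiquitin hydrolase of neurons and neuroendocrine cells, also called PGP9.5, and spans 41258898 to 41270446 on the plus strand of chromosome 4. It had 1 peak in each line, 2451 bp wide with a score of 3100 in H69M (41257847 to 41260297) and 1500 bp wide with a score of 2137 in H69 (41258556 to 41260055). The H69M peak contained the H69 peak, and its ratio of 1.63 came from both sides. In RefSeq the promoter of UCHL1 is also that of UCHL1-DT, a transcript that runs the opposite way, so the peak cannot be given to UCHL1 alone. It held TATAAA on the opposite strand at bases -29 to -24.

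NCAM1 encodes the neural cell adhesion molecule, CD56 on SCLC cells, and is the longest of the 10 genes, at 112831969 to 113149158 on the plus strand of chromosome 11. Its start peak was nearly the same in both lines, 3064 bp wide in H69M (112831834 to 112834897) and 3075 bp wide in H69 (112831926 to 112835000), with a score of 3100 in both lists. The antisense transcripts NCAM1-AS2 and NCAM1-AS1 overlap the gene in RefSeq. The peak lists of the lines differed inside the gene. The window held 27 peaks over 37.1 kb in H69M and 21 peaks over 16.8 kb in H69, a ratio of 2.21.

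The NCAM1 surplus lay between the ends of the gene. From 10 to 100 kb past the start, H3K27ac covered 4.06 kb in H69M and 2.12 kb in H69, and from 100 to 200 kb 7.36 kb in H69M and 3.52 kb in H69. The surplus was longest from 200 to 300 kb, with 17.9 kb in H69M (13 peaks) and 4.35 kb in H69 (6 peaks). In the first 10 kb the values were 3.44 kb in H69M and 3.03 kb in H69, and in the last stretch, past 300 kb, 4.19 kb in H69M and 3.74 kb in H69. The strongest peak away from the start lay at bases 279030 to 281509 in H69M (113110999 to 113113478, score 2374) and at bases 279519 to 281114 in H69 (score 429).

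Of the 27 NCAM1 peaks in H69M 13 had no counterpart in H69, the highest of them with a score of 453 at 113008518 to 113009625, and 11 of the 13 lay between 100 and 300 kb from the start. Of the 21 peaks in H69 4 had none in H69M, with scores up to 112.5. Over the whole lists 48.4% of the H69M peaks and 22.5% of the H69 peaks had no counterpart. The NCAM1 counts are near these shares, so nothing particular to the gene can be read from them. Among 100 kb tiles with peaks in both lines, nearer to the NCAM1 window in size, 27.2% had at least 2 times the H3K27ac length in H69M. The H3K27me3 peak nearest to the NCAM1 start was 676 kb away in H69M and 537 kb away in H69.

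DDC encodes aromatic amino acid decarboxylase, which makes dopamine and serotonin, and spans 50526134 to 50633154 on the minus strand of chromosome 7. It was the exception in the place of its H3K27ac. No peak lay within 1 kb of its start, and the first peak ran from base 2358 to 7141 in H69M (50626013 to 50630796, score 3100) and from base 2448 to 7103 in H69 (50626051 to 50630706, score 2794). These peaks were among the widest of their lists, with 97.9% of the H69M peaks and 98.9% of the H69 peaks narrower.

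RefSeq lists a second DDC start 4334 bases downstream of the first on GRCh38, and the gene is known to use separate first exons in neuronal and non-neuronal cells. That distance falls inside the range of the first peak in both lines, although the RefSeq start was not carried over to hg19 and the 2 gene spans differ in length by 57 bases. Both promoters are shown because the peak lies at the distance of the second. Neither held any of the 6 motifs, and capitals mark the 50 bases from each start onward. The GC content was 44.3% for the first and 57.3% for the second, beside a median of 58.7% over all RefSeq promoters.
DDC promoter at the first start, chr7:50565356-50565655 of GRCh38.p14, minus strand: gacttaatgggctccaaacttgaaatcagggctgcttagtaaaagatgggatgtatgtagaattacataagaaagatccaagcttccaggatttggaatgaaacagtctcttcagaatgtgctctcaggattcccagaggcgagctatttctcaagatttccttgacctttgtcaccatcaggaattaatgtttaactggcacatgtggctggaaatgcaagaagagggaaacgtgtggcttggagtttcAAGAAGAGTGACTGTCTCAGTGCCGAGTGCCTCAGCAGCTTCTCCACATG
DDC promoter at the second start, chr7:50561022-50561321 of GRCh38.p14, minus strand: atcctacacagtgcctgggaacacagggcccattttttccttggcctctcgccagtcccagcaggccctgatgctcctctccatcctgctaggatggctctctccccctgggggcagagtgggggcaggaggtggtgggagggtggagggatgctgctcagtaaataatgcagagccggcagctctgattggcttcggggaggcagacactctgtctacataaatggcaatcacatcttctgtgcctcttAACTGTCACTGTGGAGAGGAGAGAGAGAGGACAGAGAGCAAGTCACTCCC

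DDC had fewer but longer peaks in H69M, 8 over 25.8 kb against 15 over 21.2 kb in H69. Next to the first peak, 1 H69M peak of 7236 bp (bases 7380 to 14615, score 3100) lay over 5 separate H69 peaks of 564 to 1577 bp with scores of 73.5 to 848.5. Of the H69M list 99.4% of the peaks were narrower than that one. Near the 3' end, 2 H69M peaks of 4747 and 4519 bp (scores 2490 and 1143) lay over 6 H69 peaks with scores of 64.2 to 592.

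Most DDC peaks were thus on the same ground in both lines. Without a counterpart were 2 of 8 in H69M (scores 81.5 and 81.7) and 1 of 15 in H69 (score 93.2). Over the whole lists 48.4% of the H69M peaks and 22.5% of the H69 peaks had none. The DDC counts are small and were not tested against these shares. An antisense gene, DDC-AS1, lies within DDC in RefSeq. The only H3K27me3 peak of a gene with H3K27ac was an H69M peak of 130 bp (score 59.3) close to the 3' end of DDC.

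**Figure D4:**
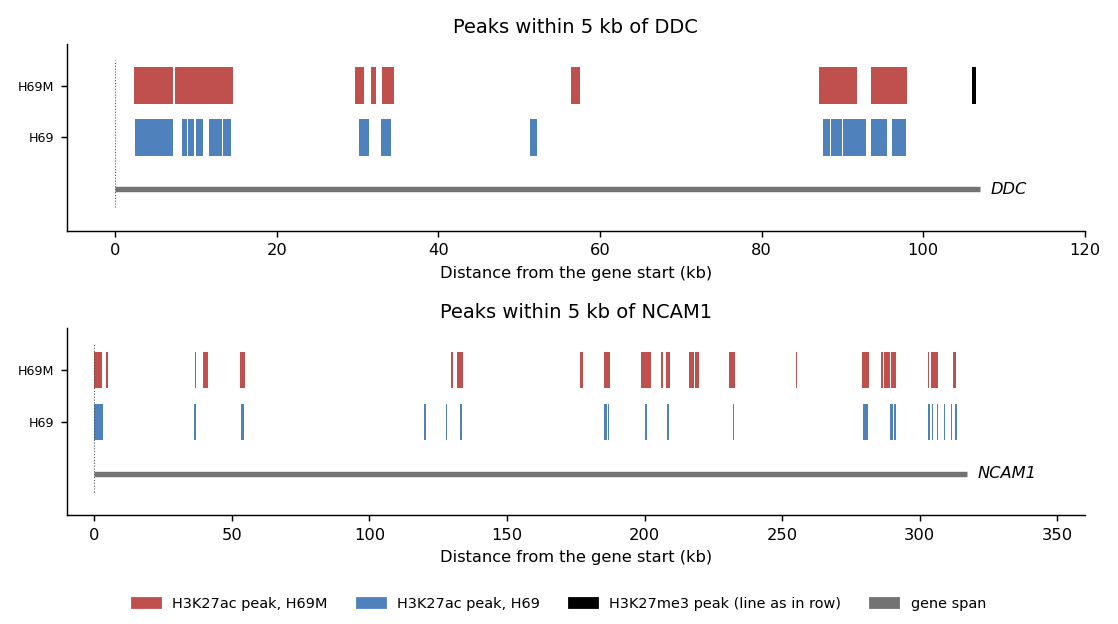
Peaks in the windows of DDC and NCAM1, by distance from the gene start in kb (x axis), with the H69M row above the H69 row and the gene span in grey. The DDC peaks begin 2.36 kb past the start in H69M and 2.45 kb in H69, and the NCAM1 row of H69M is denser between 100 and 300 kb.

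Over all windows, 17 of 52 H3K27ac peaks in H69M had no counterpart in H69 (32.7%, exact 95% binomial interval 20.3 to 47.1), beside 48.4% of all H69M peaks. In H69 6 of 53 had none in H69M (11.3%, 4.27 to 23.0), beside 22.5% of all H69 peaks. NCAM1 alone gave 13 of the 17 in H69M and 4 of the 6 in H69. These were 13 of its 27 peaks in H69M and 4 of its 21 in H69, near the shares of the whole lists. The lower shares over all windows thus came from the other genes, where few peaks lacked a counterpart. The intervals cover counting error only and treat peaks of 1 gene as independent, which they are not. They are therefore no test against the shares of the whole lists. The scores of peaks without a counterpart reached 453 in H69M and 112.5 in H69.

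Start peaks were wider in H69M at 5 of 8 genes (CHGA, SYP, DLL3, SCG2 and UCHL1) and narrower at 3 (CHGB, NCAM1 and GRP), NCAM1 by only 11 bp. Of all H69 H3K27ac peaks with a counterpart, 81.7% had a wider one in H69M, and of those with a score of 1000 or more 78.9% did. The median width ratio was 1.37 at the 8 gene starts and 1.32 over all H69 peaks with a counterpart, or 1.15 over those with a score of 1000 or more in H69. Over the lists each H69 peak was set against its widest overlapping H69M peak, so all H69 peaks under 1 broad H69M peak count. At the starts 1 peak was set against 1, so the measures are not quite alike. The narrower start peaks were the 3 with the lowest ratios of 0.879 (CHGB), 0.881 (GRP) and 0.996 (NCAM1).

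H3K27me3 was absent from the lists in the windows of 8 genes in both lines. From their starts the nearest listed peak was 21.1 to 3557 kb away in H69M and 70.0 to 735 kb away in H69. H3K27me3 was listed in either line in 15314 tiles of 25 kb, beside 121338 tiles in all as laid for H3K27ac. Most tiles thus lacked it too, and nothing particular to these genes can be read from its absence. Of the 9 genes with H3K27ac, 1 also held H3K27me3 in H69M (DDC) and 0 in H69, beside 8.16% of the tiles with H3K27ac in H69M and 8.05% in H69. No peak of one mark overlapped a peak of the other in any of the 10 windows in either line.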

How the data were processed

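H3K27ac and H3K27me3 ChIP-seq was done in H69M and H69, 1 library per mark and line; the 2 input libraries were not analysed here. Per the labels' protocols, fixed chromatin was sonicated, precipitated with ab4729 (H3K27ac) or C36B1 (H3K27me3), and sequenced from paired ends. The submitters' processing notes name Bowtie2, SAMtools 0.1.19 and hg19. Each deposited list gives peak positions, a name with the word MACS, and a score per peak set by the authors; MACS version, settings and use of the input: not given in the sources used here. Lists were made per library. Read depth is unknown.

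Gene spans on hg19 came with the choice of genes. Peak coordinates are 1-based on hg19. Peaks on chromosomes 1 to 22 and X were used. Covered length is the union of peaks clipped to the window; a counterpart overlaps by 1 bp or more; tiles of 25 kb give the background. All 10 genes are described, and peaks were named by a rule (at the start, highest score, widest). Functions were tested on simulated data. Promoters (250 bases before to 50 after a start) come from RefSeq on GRCh38.p14 for 6 of the 10 genes (7 entries); neighbours are from RefSeq too, and no coordinate was moved between builds. The 6 motifs searched on both strands were the cAMP response element TGACGTCA, the TATA box TATAAA, the E-box CAGCTG, the E-box variant CAGGTG, the E-box CACGTG known from MYC, and the core of the REST element. The motif CAGCTG, the motif CACGTG and the REST element were in none of the 7 entries and in 17.9%, 7.26% and 0.0142% of all promoters. Python 3.11.15 and scipy 1.17.1 were used. With 1 library per group no test between the lines was made. The genes, windows and alternatives were chosen with earlier results of these data known. Spans on hg19 were at hand for these 10 genes only, so no wider gene list was counted.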

Additional observations from a re-analysis of the deposited data

How the results depend on the processing

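Of 118 recomputed values 77 kept within 1.5 times of the reported one, 40 moved further and 1 reversed. With a score of 1000 or more, H3K27ac was left at 8 genes in H69M (all but SCG2) and at 7 in H69 (all but SCG2 and SYP), and under the other alternatives at all 9 in both lines. Genes covered over a shorter length in H69M numbered 3 in place of 1 over the gene span alone (with CHGB and SYP), with equal numbers of peaks and with a score of 100 or more (with CHGA and CHGB each time), and 2 with a score of 1000 or more (with CHGB). At that score 14 peaks were left in H69M and 7 in H69, and the length ratio was 2.46. Most of that difference came from DDC, with 21.3 kb in H69M and 4.66 kb in H69. The score describes a peak within its list only, so a fixed score is not the same cut in both lists. No such ratio was computed over the whole lists, so nothing particular to these genes can be read from it. With 50 kb on either side the windows held 83 H3K27ac peaks in H69M and 87 in H69.

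The H3K27me3 values rest on 6 peaks with scores under 100 and were not stable. The length ratio of 0.671 turned to 2.45 with 50 kb on either side, where H69M had 13 peaks at 6 genes and a greater length at 5; with 20 kb a greater length was found at 2. Over the gene span alone 1 peak at 1 gene was left in H69M and 0 in H69, with 0 genes shorter in H69M. With equal numbers of peaks H69M kept 0 peaks at 0 genes, and with a score of 100 or more, or 200 or more, 0 peaks were left in either line. Within 2.5 or 5 kb of a start 1 gene (CALCA) had H3K27me3 in each line, against 0 within 1 kb. Counting any peak within 1 kb as a counterpart left 1 H3K27me3 peak in H69M and 0 in H69 without one. Both marks anywhere in the window were found at 1 gene (DDC) in H69M.

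Tiles of 10 or 100 kb and an overlap of 50% kept all values within 1.5 times. Why these values move was not tested beyond the peaks left by each setting. No paired analysis was possible because each group has 1 library. For the same reason no replicate could be left out. Unknown read depth limits every comparison of length, width and number of peaks between the lines.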
